A study of Mus musculus with 17 samples.

Results

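Wnt6 and Wnt10a are neighboring ligand genes on mouse chromosome 1, and their RNA was measured in epithelial cells of 17 mammary tumors with 3 array probes, 2 for Wnt6 and 1 for Wnt10a, of 41174 probes in all. They are 2 of 19 Wnt ligand genes on the array and of 28786 gene names, unnamed probes counted by their own names. The members were taken by gene name from the array annotation, and the pair was chosen by the levels of both genes in these tumors, which earlier results of these data had shown to vary together. Each tumor came from a different transgenic mouse of the FVB strain, which carried CUX1 isoform p75 (9 tumors) or p110 (8 tumors) under mouse mammary tumor virus (MMTV) regulatory sequences, which are active in mammary epithelium. The histological types were adenosquamous carcinoma (p75-47, p75-80, p75-94 and p75-101), solid carcinoma (p75-129, p75-150 and p75-534, and p110-121, p110-143, p110-225, p110-314, p110-360 and p110-416), adenomyoepithelioma (p75-90 and p110-374), adenocarcinoma (p75-216) and adenoma (p110-98). No mouse age was given in the sources used here, and no normal mammary gland was compared. All values are log2 ratios of a tumor over 1 universal mouse reference RNA that was amplified like the tumor RNA, so a value of 0 means the level of that reference and not of normal tissue. The study also sorted these tumors into high-Wnt, medium-Wnt and low-Wnt clusters by the expression of Wnt genes on these arrays, as read from the order drawn in its heatmap, so cluster values are descriptive.

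Wnt proteins are lipid-modified secreted ligands. They are acylated by Porcupine (Porcn), carried to the cell surface by Wntless (Wls), and bind Frizzled receptors with LRP5 or LRP6, after which β-Catenin enters the nucleus and acts with TCF/LEF proteins. Wnt6 and Wnt10a both take part in the development of skin, hair, teeth and the mammary bud, and Wnt10a has been associated with ectodermal dysplasia.

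Both Wnt6 probes lie at the 3′ end of the gene, at chr1:75024467-75024532 (A_51_P482571, here the upstream probe) and chr1:75024567-75024626 (A_52_P415155, the downstream probe), and the Wnt10a probe lies at chr1:75043739-75043798 (A_51_P171616), by the positions that the array files give for the mm7 build. The Wnt10a probe starts 19.1 kb after the downstream Wnt6 probe ends. The last 30 bases of each 60-base probe are shown because all values below rest on these 3 sequences, with a polyadenylation signal (AATAAA) in capitals where present.
Wnt6, upstream probe: caggacatcactccccttggcccctggaaa
Wnt6, downstream probe: gtttagtatcAATAAAgacatttaaatcca
Wnt10a probe: ctctttgagacactctctggggaaaaagaa
Of the 3 stretches, that of the downstream Wnt6 probe holds the signal. The upstream Wnt6 probe has a GC content of 55.0%, and the other probes have 35.0%.

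Wnt6 RNA varied widely among the tumors and was highest in 3 of the 4 adenosquamous carcinomas and in the p110 adenomyoepithelioma. In the adenosquamous carcinomas the upstream Wnt6 probe read 2.15 in p75-94, 2.06 in p75-80, 1.25 in p75-47 and -0.59 in p75-101. The downstream probe read 3.39, 2.89, 0.81 and -1.11 in the same tumors. Tumor p75-101 was thus below the reference on both probes, unlike the other adenosquamous carcinomas. In the p75 solid carcinomas the upstream probe read 0.11 in p75-129, -0.48 in p75-150 and -0.24 in p75-534. The downstream probe read -0.48, -1.45 and -1.93 there. The 6 p110 solid carcinomas lay between -0.55 and 0.38 with a median of -0.31 on the upstream probe. On the downstream probe they lay between -2.20 and -0.46 with a median of -1.61, and 3 of their 16 arrays were well above background, so this probe sets little more than an upper limit in them. The tumors alone in their group read, on the upstream and downstream probe, 1.17 and 1.51 in p110-374, 0.64 and -0.38 in p110-98, 0.38 and -0.44 in p75-90, and 0.11 and -0.66 in p75-216.

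Wnt10a was highest in the same 4 tumors, in a slightly different order. In the adenosquamous carcinomas it read 2.08 in p75-80, 2.00 in p75-94, 0.35 in p75-47 and -4.04 in p75-101. The 3 p75 solid carcinomas were close together, with -2.05 in p75-129, -2.64 in p75-534 and -2.73 in p75-150. The 6 p110 solid carcinomas lay between -5.59 and -0.97 with a median of -3.38. The value was -0.40 in p110-374, -1.42 in p75-90, -1.70 in p75-216 and -2.64 in p110-98. All 3 of the tumors above the reference were adenosquamous carcinomas, and p75-101 was the lowest p75 tumor. Because these are bulk RNA samples, fewer cells that make a ligand and less of its RNA per cell cannot be told apart.

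**Figure D1:**
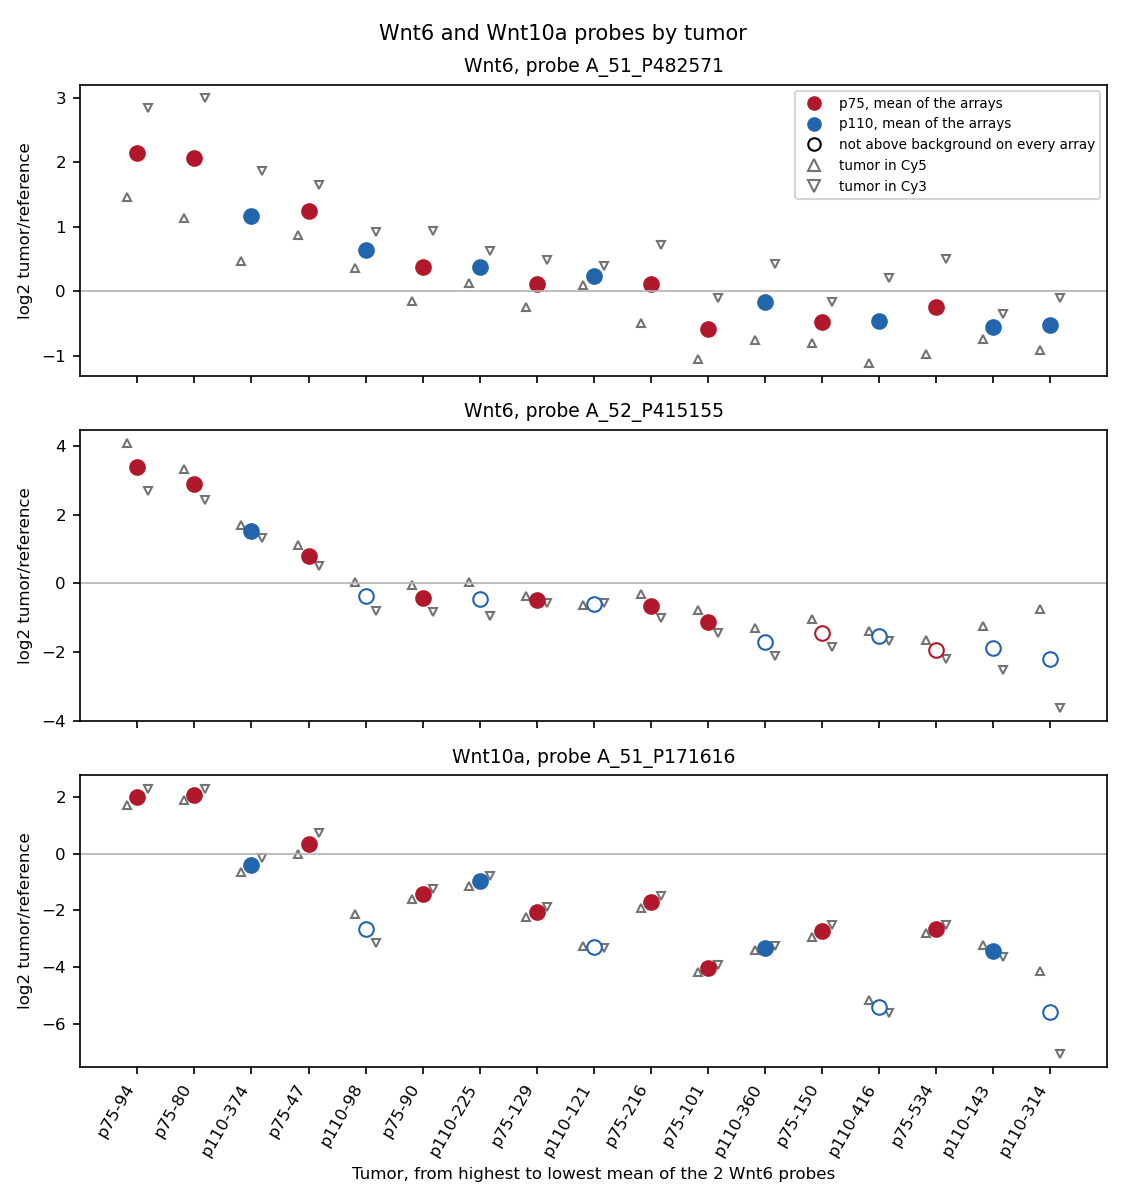
Log2 tumor/reference of each probe in each of the 17 tumors, ordered by Wnt6. Circles are the means of a tumor's arrays (red p75, blue p110, open where an array of the tumor was not well above background) and triangles are the means of each dye orientation. The circles fall from 2.15 to -0.59 (upstream Wnt6), from 3.39 to -2.20 (downstream Wnt6) and from 2.08 to -5.59 (Wnt10a), and the triangles show the dye offset of each Wnt6 probe, which varied in size between tumors.

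The spread between tumors was larger than that between arrays of the same tumor. Each tumor was hybridized with the dyes swapped, on 2 arrays or, for p110-143 and p110-360, on 4. The technical SD of a tumor's mean, estimated from the difference between its dye orientations, was 0.22 for the upstream Wnt6 probe, 0.32 for the downstream probe and 0.43 for Wnt10a. The SD over the 17 tumors was 0.87, 1.63 and 2.20, respectively. The upstream Wnt6 probe read higher with the tumor in Cy3 in 17 of 17 tumors, and the downstream probe read higher with the tumor in Cy5 in 16 of 17. The size of this gap varied between tumors, from -1.87 to -0.29 (Cy5 minus Cy3) on the upstream and from -0.05 to 2.87 on the downstream probe. The swap cancels a dye offset in the mean. Wnt10a in p110-314 was the least certain value, with -4.13 in Cy5 and -7.04 in Cy3. Every array of a tumor had the probe well above background in its tumor color in 17 tumors for the upstream Wnt6 probe, in 13 for Wnt10a and in 8 for the downstream Wnt6 probe. The reference color was well above background for all 3 probes on 38 of 38 arrays, and no spot of theirs was saturated. Ranked by the mean of both Wnt6 probes, p75-94 and p75-80 did not differ beyond their technical spread, nor did p110-374 and p75-47, whereas the steps below p75-80 (1.13), below p75-47 (0.90) and below p75-216 (0.57) exceeded 2 technical SDs of a difference (0.56). For Wnt10a that limit was 1.22, and it was exceeded by the step below p75-94 (1.65) and by the step from p75-101 to p110-416 (1.36), which was not measured on every array. The technical SD of Wnt10a over the 13 measured tumors alone was 0.13, so this limit is wide for neighbors that were both measured.

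The ratios of several tumors depended on how the arrays were normalized, and under median centering the change was largest in 3 p110 tumors. Fewest probes exceeded background in the tumor color in p110-374 (21.5%), p110-98 (23.6%) and p110-225 (25.6%), against up to 65.6% in the others. Loess, which the authors' values use, removes the trend of the ratio with brightness within each array. With median centering in place of loess the upstream Wnt6 probe read -1.43 in p110-374, -1.79 in p110-98 and -1.42 in p110-225, and Wnt10a read -3.46, -5.47 and -3.47. Other tumors moved less, among them p75-90 (upstream Wnt6 from 0.38 to -0.75, Wnt10a from -1.42 to -2.74) and p110-121 (0.24 to -0.70 and -3.28 to -4.48), and Wnt10a went from -3.43 to -4.53 in p110-143. The same change moved the upstream Wnt6 probe from 2.06 to 1.32 in p75-80 and Wnt10a from 2.08 to 1.29, and p75-94 stayed at 2.11 and 1.94. With the scanner software's processed signals other tumors moved more, among them p110-121 (Wnt10a from -3.28 to -6.00, downstream Wnt6 from -0.60 to -4.12).

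Wnt6 and Wnt10a varied together. Over the 17 tumors Pearson's r between Wnt10a and the mean of the Wnt6 probes was 0.914 and Spearman's rho was 0.873. The probes of Wnt6 correlated with each other at r = 0.968. Wnt10a changed by 1.62 log2 units for each log2 unit of the Wnt6 mean, by 2.31 for the upstream probe alone and by 1.22 for the downstream probe alone. Since the members were chosen with this pattern known, and all tumors share the reference RNA, these values are given without a test. Within the 9 p75 tumors r was 0.967, and within the 8 p110 tumors it was 0.843. Without p75-94 and p75-80, the tumors farthest from the median of Wnt6, r was 0.826 over 15 tumors. Outside the high-Wnt cluster it was 0.672 over 12 tumors, and in the 7 low-Wnt tumors 0.359. In those 7 tumors the Wnt6 probes correlated with each other at -0.258, and the downstream probe was measured in 1 of them, so these values hold little on whether the genes varied together there.

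In the p110 tumors the pair also moved with the share of probes above background in the tumor color. There, the share of probes above background correlated with Wnt6 at r = -0.852 and with Wnt10a at r = -0.878, over 8 tumors. With that share fitted out, r between Wnt6 and Wnt10a was 0.378 in the p110 tumors. In the 9 p75 tumors the share correlated with Wnt6 at 0.15 and with Wnt10a at 0.0876, and r between the genes with the share fitted out was 0.969. What sets that share was not measured, and its part in the p110 values was not tested.

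**Figure D2:**
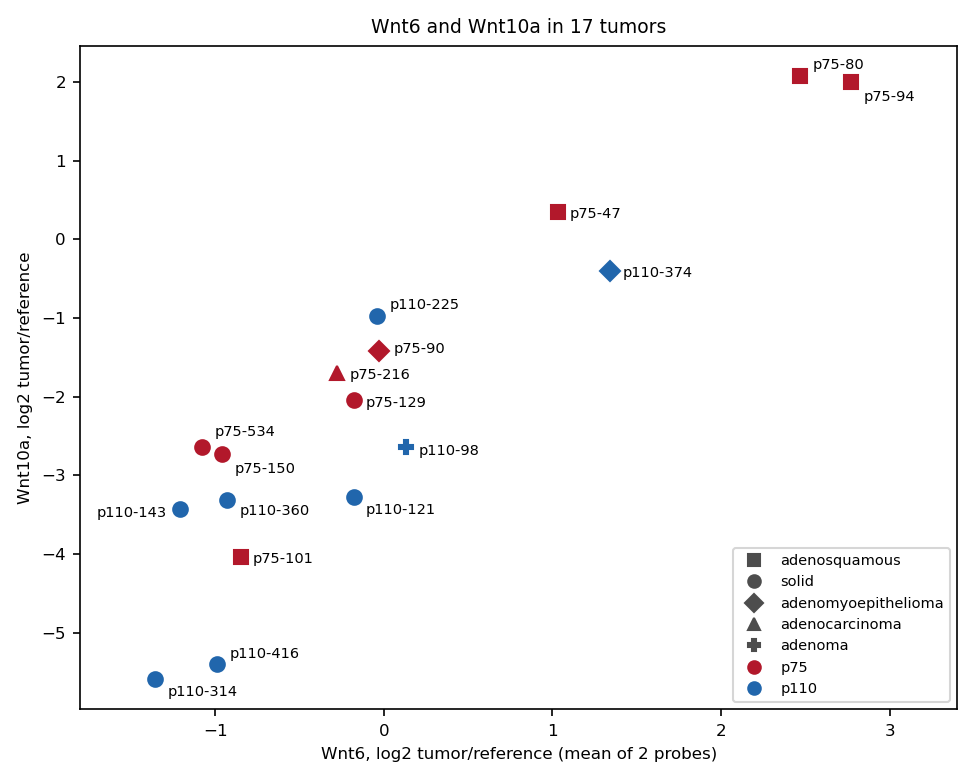
Wnt10a against the mean of the Wnt6 probes, both as log2 tumor/reference, for each of the 17 tumors (color gives the transgene, marker the histological type). The points rise from p110-314 (Wnt6 -1.36, Wnt10a -5.59) to p75-80 (2.47 and 2.08) and p75-94 (2.77 and 2.00), with p75-101 (-0.85 and -4.04) among the low tumors.

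To ask whether the pair differs with histology, the 4 adenosquamous carcinomas were compared with the 3 solid carcinomas of the same transgene. The means of adenosquamous carcinomas were higher on all 3 probes, but p75-101 overlapped the solid carcinomas. The upstream Wnt6 probe averaged 1.22 ± 1.27 (SD, n = 4) against -0.20 ± 0.30 (SD, n = 3), a difference of 1.42 (exact two-sided permutation test, p = 0.171). The downstream probe averaged 1.49 ± 2.06 against -1.29 ± 0.74, a difference of 2.78 (exact permutation p = 0.114). Wnt10a averaged 0.10 ± 2.87 against -2.48 ± 0.37, a difference of 2.58 (exact permutation p = 0.2). These levels were known when the genes were chosen, so the tests are no independent evidence. The smallest p this design allows is 0.0286, and over the 6 tests of the members in both contrasts the adjusted p was 0.393 for each. In the limma fit over all probes, adjusted p was 1 for each of the 3 probes, and 0 of 41174 probes passed (0% called, 1173 at an unadjusted p under 0.05). Against all 9 solid carcinomas of both transgenes, which mix the scan years, the differences were 1.40, 2.85 and 3.37, given as a description because the genes were chosen by their levels in these tumors.

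Adenosquamous and solid carcinomas shared 2 scan days, and the differences within them disagreed. On the day shared by p75-94 and p75-129, the adenosquamous carcinoma was higher by 2.03 on the upstream Wnt6 probe, 3.87 on the downstream probe and 4.05 for Wnt10a. On the day shared by p75-101 and p75-150, the differences were -0.10, 0.34 and -1.31.

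To ask whether the CUX1 isoform matters, the p75 and p110 solid carcinomas were compared. The upstream Wnt6 probe averaged -0.20 ± 0.30 (SD, n = 3) against -0.18 ± 0.40 (SD, n = 6), and the downstream probe -1.29 ± 0.74 against -1.39 ± 0.71. Wnt10a averaged -2.48 ± 0.37 against -3.67 ± 1.69, with the p75 tumor higher in 15 of the 18 pairs. Not all of these tumors had each probe clear of background on all their arrays. For Wnt10a, 3 of 3 p75 and 3 of 6 p110 tumors did, and for the downstream Wnt6 probe 1 of 3 and 0 of 6. The lowest Wnt10a values, -5.59 in p110-314 and -5.4 in p110-416, each had 1 of 2 arrays above background. The sizes of the Wnt10a and downstream Wnt6 differences are thus uncertain. The differences were -0.02, 0.11 and 1.19 (exact two-sided permutation p = 0.917, 0.762 and 0.262, and limma's adjusted p = 0.996, 0.986 and 0.875). The levels in these tumors, too, were known when the genes were chosen, so these tests are no independent evidence. In this contrast 0 of 41174 probes passed (0% called, 2741 at an unadjusted p under 0.05). The sign for either Wnt6 probe turned with the processing. The arrays of the isoforms were scanned in different years with no slide or scan day in common, so isoform and scan year cannot be told apart.

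**Figure D3:**
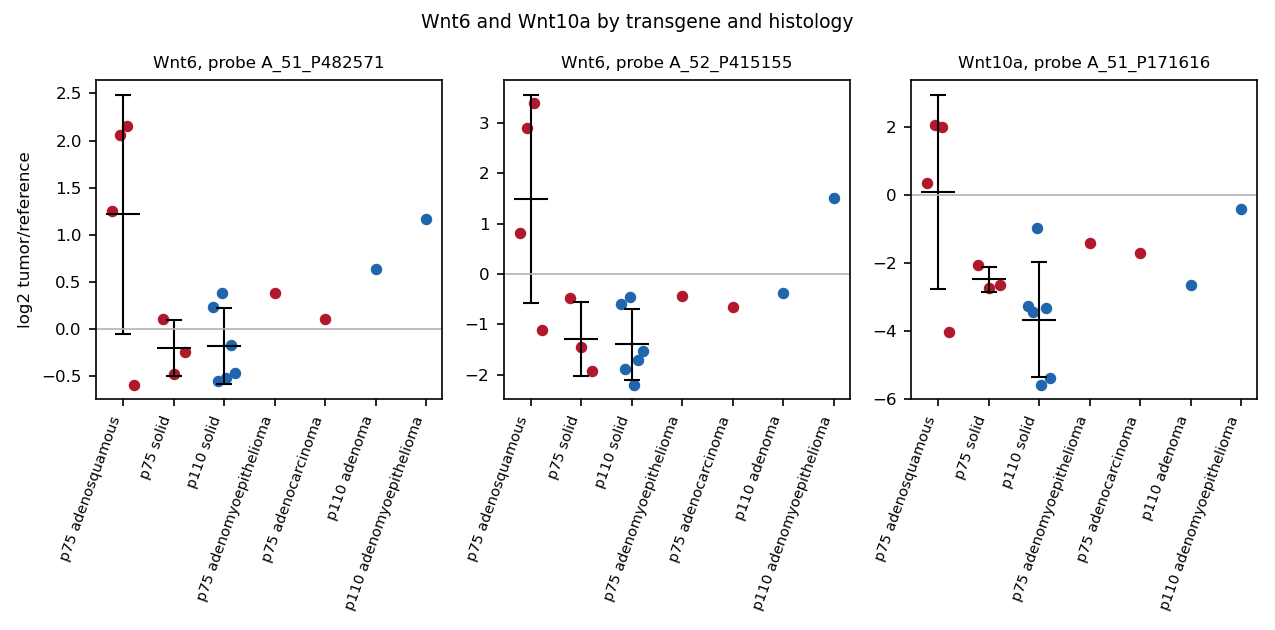
Log2 tumor/reference by transgene and histological type for each probe, 1 point a tumor (red p75, blue p110), with mean and SD drawn for groups of 3 or more tumors. The 4 p75 adenosquamous carcinomas spread from -4.04 to 2.08 for Wnt10a and overlap the solid carcinomas because of p75-101.

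Across the study's clusters, high-Wnt tumors were above low-Wnt tumors on each of the 3 probes without overlap. The 5 high-Wnt tumors (p75-47, p75-80, p75-94, p110-225 and p110-374) had medians of 1.25, 1.51 and 0.35 on the upstream Wnt6, downstream Wnt6 and Wnt10a probes. The 5 medium-Wnt tumors had 0.24, -0.48 and -2.05, and the 7 low-Wnt tumors had -0.48, -1.70 and -3.43. Over all probes, 0.879% were higher in every high-Wnt than in every low-Wnt tumor. Since the clusters were drawn from Wnt gene values on the same arrays, nothing is read from that count. With median centering 0 of the 3 probes separated the clusters.

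Genes that follow the pair were sought by a slope on Wnt6 or Wnt10a over the 17 tumors, fitted with limma on every probe. On Wnt6, 111 probes rose (0.27%) and 5 fell (0.0121%) of 41172 tested (0.282% called in either direction, adjusted p under 0.05). On Wnt10a, 56 rose (0.136%) and 3 fell (0.00729%) of 41173 (0.143% called). With the members left out, 37 probes (0.0899%) were called on both, all rising, which is 32.2% of the Wnt6 calls and 64.9% of the Wnt10a calls, and the covariates are themselves correlated and share all tumors. The Wnt6 count rested on few tumors, with 41 calls without p75-94, 53 without p75-80 and 77 without p110-360. The Wnt10a count was 10 without p75-94 or without p75-80, 16 without p110-314, and between 27 and 39 without p75-47, p75-101, p75-129, p75-150, p75-216, p110-98 or p110-360. With the scanner software's processed signals 3 probes were called on Wnt6.

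To find the genes whose pattern was most like that of the pair, probes were ranked by correlation. Among the 17395 other probes measured, that is well above background on every array, in 5 or more tumors, genes were ranked by the smaller of their correlations with Wnt6 and Wnt10a, with 1 probe a gene and no test, since the points share tumors and reference. The first 10 were Chst11, Krt16, Bmp7, Vmp1, S100a3, Sp6, Cnfn, Lypd6b, Ngfr and Rgs12. Of those probes 16 (0.092%) had both correlations at 0.8 or more, where the median correlation was -0.02 with Wnt6 and -0.03 with Wnt10a.

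Krt16, a keratin of stratified and wounded epithelium, read 7.64 in p75-80, 5.78 in p75-47, 5.46 in p75-94, 2.86 in p110-225, 2.52 in p75-90 and 1.69 in p110-374. In the 7 low-Wnt tumors it lay between -0.60 and 0.47. Its r was 0.874 with Wnt6 and 0.84 with Wnt10a. Cnfn, which encodes cornifelin of the cornified envelope, read 4.51 in p75-80, 3.74 in p75-94 and 2.15 in p75-47 and at most 0.62 in the other tumors (r = 0.903 and 0.836). The adenosquamous tumor p75-101 was among the lowest for both, at -0.60 and -0.22.

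Sp6, a transcription factor of tooth and skin epithelium, read 6.25 in p75-80, 5.94 in p75-94 and 3.72 in p75-47, and p110-374 read 0.27 (r = 0.849 and 0.837). Within the p110 tumors its r with Wnt6 was 0.282, against 0.954 within the p75 tumors. Ngfr, a neurotrophin receptor unrelated to the CUX1 isoform named p75, read 5.62 in p75-80 and 4.01 in p75-94 (r = 0.817 and 0.815), and without those 2 tumors its r with Wnt6 was 0.442. Bmp7, a secreted ligand of the TGF-β family, reached 2.95 in p75-80 and 2.89 in p75-94 and was lowest in p110-314, at -2.37 (r = 0.838 and 0.869).

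Chst11, a chondroitin sulfotransferase, had the highest smaller correlation, with r = 0.893 for Wnt6 and 0.918 for Wnt10a. It read 1.23 in p75-94 and 0.49 in p75-80, and it was below the reference in the other 15 tumors, down to -2.71 in p110-416. Rgs12, a regulator of G protein signaling, was closer to Wnt10a (r = 0.938) than to Wnt6 (0.811). S100a3, a calcium-binding protein of the hair cuticle, had r = 0.893 and 0.837. Vmp1, an autophagy protein, had 0.878 and 0.838, and Lypd6b, a Ly6 family member, 0.839 and 0.818. The next genes in the ranking were Mgat5 and Ccnd2, each at 0.809.

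The most opposed genes were Parp16, Arhgap26, Srgap3, Map2 and Snrnp35. Map2, a microtubule-associated protein, read between 0.71 and 1.18 in the 5 high-Wnt tumors and between 2.21 and 3.47 in the 7 low-Wnt tumors (r = -0.743 with Wnt6 and -0.753 with Wnt10a). Srgap3, a GTPase-activating protein, lay between -0.29 and -0.07 in the high-Wnt and between 0.42 and 1.02 in the low-Wnt tumors (r = -0.744 and -0.764). Parp16 (-0.815 and -0.781), Arhgap26 (-0.827 and -0.76) and Snrnp35 (-0.741 and -0.748) also had negative correlations with both genes, and the clusters overlapped for Snrnp35 (high-Wnt -1.30 to -0.18, low-Wnt -0.34 to 1.54). Under median centering the weaker correlation was 0.0745 for Snrnp35, -0.0921 for Parp16, -0.0975 for Srgap3, -0.385 for Arhgap26 and -0.397 for Map2. Without p75-94 and p75-80 the correlations of Map2 and Srgap3 with Wnt6 were -0.83 and -0.785. Those of Arhgap26, Parp16 and Snrnp35 were then -0.728, -0.588 and -0.544.

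**Figure D4:**
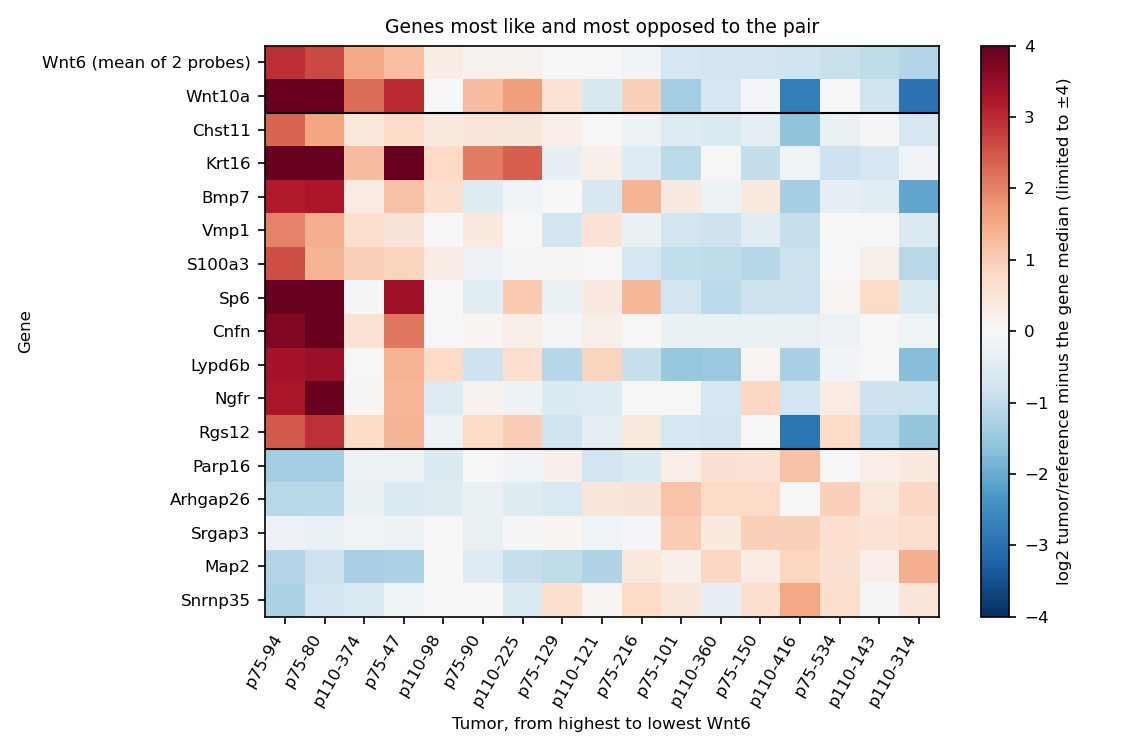
Log2 tumor/reference minus each gene's median (color, limited to ±4) for Wnt6, Wnt10a, the 10 genes most like the pair and the 5 most opposed, in the 17 tumors ordered by Wnt6. The 10 genes are high in p75-94 and p75-80, with Krt16 at 5.46 and 7.64 before centering, and Krt16 is also high in p75-47 (5.78).

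Of the squamous cell markers, Krt16 rose with both genes and 3 others rose with Wnt6. Of 18 squamous markers, 4 were called on Wnt6 (Krt16, Sprr1a, Sprr1b and Krtdap, all rising) and 1 on Wnt10a (Krt16), against 0.327% and 0.16% called over all genes with 1 probe a gene (0.309% and 0.153% rising, 0.0174% and 0.00695% falling). The median correlation of the markers was 0.61 with Wnt6 and 0.60 with Wnt10a, and over all genes it was 0.02 with each. The slope of Krt16 was 1.74 ± 0.24 (SE) on Wnt6 (limma adjusted p = 0.0041) and 0.94 ± 0.15 on Wnt10a (adjusted p = 0.0236). The Wnt10a call of Krt16 was lost with processed signals (adjusted p = 0.0817), scaling (0.0693), the tumor in Cy3 (0.0625), without p75-80 (0.136) and without p75-94 (0.0849). Sprr1a, a cornified envelope precursor, rose with Wnt6 with a slope of 1.30 ± 0.23 (adjusted p = 0.0237) and did not pass on Wnt10a (adjusted p = 0.0962). Its call on Wnt6 was lost with scaling (adjusted p = 0.166), in the tumor color alone (0.061), without p75-80 (0.11) and without p75-94 (0.079). Sprr1b and Krtdap did not pass on Wnt10a either (adjusted p = 0.159 and 0.151). They were measured in 3 and 4 tumors, their calls on Wnt6 were lost in 6 and 15 of 17 fits that left out a tumor, and with scan year as a block the adjusted p was 0.076 and 0.098. With processed signals 0 of the 4 calls on Wnt6 passed (adjusted p between 0.0681 and 0.293). The mean level of the list was 2.31 in p75-80, 1.47 in p75-94 and 0.80 in p75-47, and 0.17 in p75-101. It lay between 0.55 and 2.31 in the high-Wnt, 0.14 and 0.53 in the medium-Wnt and -0.08 and 0.31 in the low-Wnt tumors. The markers Ivl, Flg and Dsc3 were not well above background in any tumor. The part of squamous cells in the levels of Wnt6 and Wnt10a was not tested.

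Of the other cell type lists none had a called gene, which at 0.327% and 0.16% called over all genes says little of lists this short. The mean levels of the basal and luminal lists are given by cluster. Of 10 basal and myoepithelial markers 0 were called, with median correlations of 0.17 with Wnt6 and 0.33 with Wnt10a. The mean of the list lay between 1.63 and 3.60 in the high-Wnt, 0.07 and 3.02 in the medium-Wnt and -0.87 and 2.36 in the low-Wnt tumors. Among the low-Wnt tumors p110-416 (-0.87) and p110-314 (-0.30) were lowest, and the others lay between 1.29 and 2.36. The basal mean correlated with Wnt6 at 0.374 over all tumors, 0.0769 within p75 and 0.632 within p110, and with Wnt10a at 0.57 over all tumors. Of 12 luminal markers 0 were called, with medians of -0.26 and -0.15. The luminal mean was lower in the high-Wnt tumors (0.77 to 3.09) than in the low-Wnt tumors (3.29 to 4.02), without overlap. Of all probes 0.602% were likewise lower in every high-Wnt than in every low-Wnt tumor. The medium-Wnt tumors ranged from -1.07 to 3.15 and did not lie between the other clusters. The correlation of the luminal mean with Wnt6 was -0.455 over all tumors, -0.8 within p75 and -0.327 within p110, and that with Wnt10a was -0.298 over all tumors. The part of these cell types in the levels of Wnt6 and Wnt10a was not tested. Of the 8 fibroblast, 6 endothelial, 8 immune and 5 adipocyte markers 0 were called, with median correlations with Wnt6 between -0.21 and 0.13. The labels describe epithelial cells, and Krt8 and Krt18 of simple epithelium were well above background in 17 of 17 tumors, and Krt5 and Krt14 of basal cells in 16 of 17. Some markers of other cells were measured as widely, among them Col1a2, Col3a1 and Dcn of fibroblasts, Vwf of endothelium and Csf1r of macrophages in 17 tumors. In at least 5 tumors, 10 of 12 luminal and 9 of 10 basal and myoepithelial markers were measured. So were 8 of 8 fibroblast, 5 of 6 endothelial, 7 of 8 immune and 4 of 5 adipocyte markers. The luminal markers Foxa1 and Pgr were measured in 4 and 0 tumors. Tumor p110-121 stood apart, with a luminal mean of -1.07 (0.77 or more in the others) and an immune mean of 2.77 (at most 0.35 in the others). Without it r between Wnt6 and Wnt10a was 0.919.

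Among the genes of Wnt secretion, Porcn rose with Wnt6. It read 2.04 in p75-80 and 1.46 in p75-94, the tumors with most Wnt6, and 0.35 in p75-47. Among p110 tumors it was highest in p110-98 (1.07), p110-374 (0.84) and p110-225 (0.47), those with the fewest probes above background. In the low-Wnt tumors it lay between -0.88 and 0.00. The high-Wnt tumors were all above the low-Wnt tumors, and the medium-Wnt tumor p110-98 lay among the high. The slope on Wnt6 was 0.57 ± 0.08 (SE, limma adjusted p = 0.00385, r = 0.882), and that on Wnt10a was 0.29 ± 0.06 (adjusted p = 0.0532, r = 0.791). With the scanner software's processed signals the adjusted p on Wnt6 was 0.0897. The slope on Wnt10a passed under 8 of 13 alternatives, among them scan year as a block (0.36, adjusted p = 0.00946). With a tumor left out, limma's adjusted p of that slope ranged from 0.0329 to 0.248. Of the 9 genes of this list Porcn was the 1 called on Wnt6, where 0.327% of all genes were called, and the median correlation with Wnt6 was 0.00. Wls was measured in 17 tumors with slopes of 0.22 ± 0.12 and 0.09 ± 0.07 (adjusted p = 0.66 and 0.763).

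Of the 17 other Wnt ligands, 1 was called on Wnt6 and 0 on Wnt10a, where 0.327% and 0.16% of all genes were called. Wnt3a had a slope of 0.25 ± 0.05 (limma adjusted p = 0.0373) but was well above background in 3 tumors, and its call was lost in 10 of 17 fits that left out a tumor and with scan year as a block (adjusted p = 0.0835). Wnt5b, a ligand of mainly β-Catenin-independent signaling, ran against the pair without passing, with a slope of -0.72 ± 0.20 on Wnt6 (adjusted p = 0.202). It lay between 0.42 and 2.93 in the high-Wnt and between 2.89 and 4.88 in the low-Wnt tumors. Wnt10b, the paralog of Wnt10a, was well above background in 1 tumor and had slopes of 0.15 ± 0.05 and 0.07 ± 0.03 (adjusted p = 0.31 and 0.444). The median correlation of the 17 ligands was 0.29 with Wnt6 and 0.30 with Wnt10a, against 0.02 over all genes.

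At the nuclear end of the pathway, Tcf7 and Lef1 rose with Wnt6 on 1 of their probes each. The brighter Tcf7 probe read 0.71 in p75-94, 0.54 in p75-80 and -0.07 in p75-47, and between -2.69 and -1.14 in the low-Wnt tumors. Its slope was 0.66 ± 0.09 on Wnt6 (limma adjusted p = 0.00601) and 0.35 ± 0.06 on Wnt10a (adjusted p = 0.0425). The call on Wnt10a was lost in 12 of 17 fits that left out a tumor, with scan year as a block (adjusted p = 0.058) and with the share of probes above background as a covariate (0.0573). The brightest Lef1 probe read 0.60 in p75-94 and -0.73 in p75-80, and between -3.31 and -1.83 in the low-Wnt tumors, but it was well above background in 3 tumors only. Its slope was 0.70 ± 0.08 on Wnt6 (adjusted p = 0.00141) and 0.35 ± 0.07 on Wnt10a (adjusted p = 0.0521). The other Tcf7 probe, well above background in 2 tumors, and the other Lef1 probes, in 1 and 0 tumors, had correlations with Wnt6 of 0.207, -0.138 and 0.0843. In the tumor color without the reference, adjusted p on Wnt6 was 0.12 for Tcf7 and 0.221 for Lef1, with processed signals it was 0.354 and 0.1, and without p75-94 it was 0.0517 for Tcf7. Of the 20 cytoplasmic and nuclear effectors these were the 2 called on Wnt6, against 0.327% of all genes, and β-Catenin itself (Ctnnb1) had correlations of 0.205 and 0.232.

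Of 28 Wnt/β-Catenin target genes, which include Tcf7 and Lef1, those 2 were called on Wnt6 and 1 (Tcf7) on Wnt10a. Here and for the lists that follow, the share called over all genes was 0.327% on Wnt6 and 0.16% on Wnt10a. The median correlation was 0.46 with Wnt6 and 0.44 with Wnt10a, and the median slope on Wnt6 was 0.22 against 0.00 over all genes. Axin2, a general target, was well above background in 1 tumor and had correlations of 0.0827 and -0.0671 with Wnt6 and Wnt10a, which were 0.826 and 0.758 within the p75 tumors and -0.154 and -0.356 within the p110 tumors. Of 18 receptors and co-receptors 0 were called, with median correlations of 0.04 and 0.05. Of 17 secreted antagonists 1 was called, Dkk2, with a slope of 0.80 ± 0.14 on Wnt6 (limma adjusted p = 0.0242), which was measured in 4 tumors and whose r without p75-94 and p75-80 was 0.269. With scan year as a block the adjusted p of Dkk2 was 0.0538. Of 21 ectodermal appendage genes on the array 1 was called on Wnt6, Shh, with a slope of 0.18 ± 0.03 (adjusted p = 0.0352), but its probe was not well above background in any tumor, and the call was lost in 10 of 17 fits that left out a tumor, in 7 of 15 other alternatives, and among these with scan year as a block (adjusted p = 0.0755).

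Neither Glis1 nor Cux1, the regulators that the study examined, passed on the authors' values. Glis1 had slopes of 0.44 ± 0.12 on Wnt6 and 0.21 ± 0.08 on Wnt10a (limma adjusted p = 0.22 and 0.381). It lay between -1.92 and -0.27 in the high-Wnt and between -2.91 and -2.01 in the low-Wnt tumors, and was well above background in 4 tumors. With median centering its slope on Wnt6 was 0.41 and passed (adjusted p = 0.0322). The Cux1 probe measured in 17 tumors had slopes of 0.25 ± 0.09 and 0.11 ± 0.06 (adjusted p = 0.41 and 0.609). The paper's evidence for these regulators also includes expressing GLIS1 and p110 CUX1 in cultured cells, where several Wnt genes rose, which these slopes do not test.

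The other genes near the pair were described in the same way. Within 500 kb on either side lay 65 other probes of 41 genes, 36 of them measured in at least 5 tumors, and 0 were called on Wnt6 or Wnt10a, which is near the 0.282% and 0.143% over all probes. Their median correlation was 0.03 with Wnt6 and 0.00 with Wnt10a, against 0.02 and 0.01 over all other probes. The nearest named genes on the Wnt6 side were Prkag3 at 43.6 kb (r = 0.0926 with Wnt6), Cyp27a1 at 49.1 kb (-0.407) and Ttll4 at 82 to 88.3 kb (between -0.305 and 0.341 over its 4 probes). On the Wnt10a side they were Cdk5r2 at 51.9 kb (-0.0645), Fev at 77.6 kb (-0.0687), Cryba2 at 86.5 kb (0.126) and Cfap65 at 98.3 kb (0.383). The highest correlations were those of Slc23a3, at 305 kb, with 0.652 and 0.535, and the lowest those of Dnajb2, at 424 kb, with -0.723 and -0.744. Of the 65 probes 1 (1.54%) had both correlations at 0.5 or more, against 3.43% of all other probes.

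**Figure D5:**
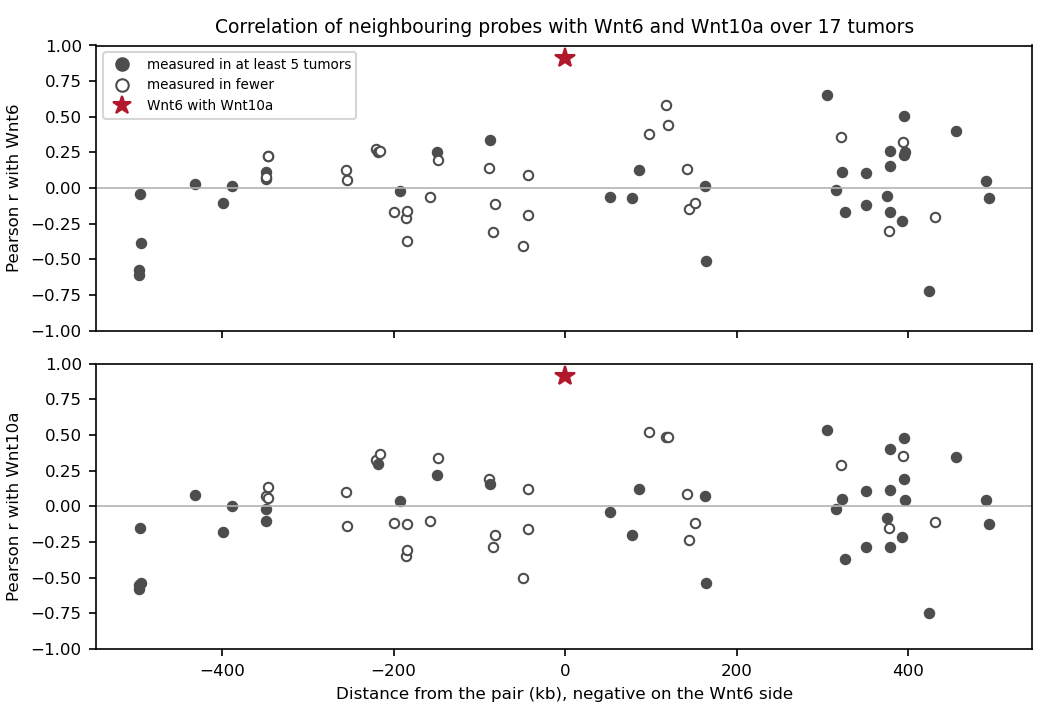
Pearson's r with Wnt6 (top) and Wnt10a (bottom) over 17 tumors for the 65 probes within 500 kb, by distance from the pair in kb (filled where measured in at least 5 tumors). The star marks r between Wnt6 and Wnt10a, 0.914, and the neighbors lie between -0.74 and 0.65.

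The promoter of Wnt6 is shown because the pair varied together, and that of Wnt10a was not used here. It is the stretch of 250 bases before the start of the gene by RefSeq, at chr1:74771642-74771891 of the GRCm38.p6 build, plus strand, with CG pairs in capitals.
Wnt6 promoter: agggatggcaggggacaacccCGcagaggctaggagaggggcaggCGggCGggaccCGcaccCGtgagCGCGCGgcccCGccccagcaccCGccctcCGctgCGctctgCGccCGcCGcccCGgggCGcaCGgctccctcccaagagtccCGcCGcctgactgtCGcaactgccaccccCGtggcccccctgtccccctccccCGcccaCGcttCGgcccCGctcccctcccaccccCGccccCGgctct
It has a GC content of 79.6% and 28 CG pairs, more than 92.4% of 32851 promoters of the same length, whose medians are 52.4% and 6. Searched on both strands, it holds 0 matches to the TCF/LEF core CTTTGA, which 13.8% of those promoters hold, 0 to the CUX1 palindrome ATCGAT (0.7%), 0 to the E-box CACGTG (6.0%) and 0 to TATAAA (12.4%). These letters are absent from this window only, and a search for exact letters does not measure binding. The paper cites earlier chromatin immunoprecipitation and reporter assays in which both CUX1 isoforms bound and activated the promoters of WNT6 and WNT10A.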

How the data were processed

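RNA from microdissected cells was amplified by the authors in 2 rounds and compared with the reference on 2-color Agilent arrays. For 45018 spots the authors deposited log2 tumor/reference ratios, and the scanner files hold intensity and background values deposited without normalization. The log2 ratios equal those of normexp background correction (offset 50), loess within arrays and averaging of swapped dyes, to within 4.98e-08. Per the labels limma was used, with no version given. Here controls were left out, spots of a probe were averaged, and 41174 probes were fitted with limma 3.58.1 (R 4.3.3, statmod 1.5.0), with Benjamini-Hochberg adjustment over all probes at 0.05. Histology and isoform were contrasts of a fit with 7 groups. Slopes used the mean of the Wnt6 probes or Wnt10a as covariate, and left out the covariate's probes. The limma fits were tested on simulated data. Figures used matplotlib 3.10.9 (colors limited as given). Symbols of 22951 probes (55.7%) came from RefSeq. The brightest probe stood for a gene in the lists. The number of arrays limits precision. Tumors are 1 sample each from separate mice.

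Members and gene lists were chosen with earlier results of these data known. The genes named are the members, the 10 most like and 5 most opposed genes, the nearest neighbors, list members called in a fit (at most 6 a list), and Cux1, Glis1, Axin2, Lef1, Tcf7, Wnt5b, Wnt10b, Porcn and Wls. Mgat5, Ccnd2 and the cell type markers Krt8, Krt18, Krt5, Krt14, Ivl, Flg, Dsc3, Col1a2, Col3a1, Dcn, Vwf, Csf1r, Foxa1 and Pgr, with Ctnnb1, Slc23a3 and Dnajb2, were added after their values were seen. The slope difference between isoforms was also added then. Alternatives were other background corrections and normalizations, single dye orientations, a filter on dim probes, trend and robust estimation, scan year, slide and scan day as blocks (by arrays 1 and 2 where a tumor had 4), the share of probes above background as a covariate, each Wnt6 probe alone, wider groups and each tumor left out.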

Additional observations from a re-analysis of the deposited data

Results flagged for a closer look

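The slope of Cnfn on Wnt6 differed between the isoforms. It was 1.26 in the 9 p75 tumors and 0.29 in the 8 p110 tumors, a difference of 0.97 (limma interaction, adjusted p = 0.0217, added after seeing the data). Cnfn ranged from -0.22 to 4.51 in p75 and from -0.27 to 0.62 in p110 tumors. In the same fit 949 of 41172 probes (2.30%) differed in slope on Wnt6, 75 of them steeper in p75, and 0 of 41173 differed in slope on Wnt10a. Without p75-94 the count was 26 and without p110-314 it was 45, but it was 1506 without p110-143 and 1570 without p110-374. It was 1873 without background correction, 311 with scaling, 75 with Cy3, 56 in the tumor color alone and 49 with Cy5. With median centering or the scanner software's processed signals it was 0. In the p110 tumors Wnt6 also followed the share of probes above background (r = -0.852). For Cnfn the adjusted p was 0.073 without p110-314, 0.0544 without p110-374, 0.0674 on arrays with the tumor in Cy5, 0.0507 in the tumor color alone, 0.241 with processed signals and 0.999 with median centering. In these settings the slope difference of Cnfn itself lay between 0.94 and 1.01. Isoform and scan year cannot be told apart.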

How the results depend on the processing

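The correlation of Wnt6 with Wnt10a stayed between 0.833 and 0.934 over 8 other processings and between 0.886 and 0.926 when each tumor was left out. Calls on the Wnt6 slope (116) became 3 with processed signals, 250 with median centering and 77 with dim probes filtered, and ranged from 41 to 162 with a tumor left out. Calls on the Wnt10a slope (59) became 153 without background correction, 103 with median centering, 32 with the tumor in Cy3 and 38 with scan year as a block, and ranged from 10 to 81. For adenosquamous minus solid, 1 probe was called in the tumor color alone and 1 with the tumor in Cy5, and 0 to 5 with a tumor left out, the 5 without p75-101. For p75 minus p110 solid, calls were 5 with loess redone without outlier spots, 6 without background correction, 5 with processed signals, 1 with scaling, 291 in the tumor color alone, 11 with Cy5, 1 with Cy3, 175 with all 9 p75 against 8 p110 tumors, and 0 to 9 with a tumor left out. In that contrast the upstream Wnt6 probe became 0.79 with median centering, 0.75 in the tumor color alone, 0.07 with Cy3 and 0.44 with all tumors, and ranged from -0.18 to 0.12. The downstream probe became -0.08 with scaling, -0.33 in the tumor color alone and -0.15 with Cy5, and ranged from -0.29 to 0.43. With median centering 0 of 3 member probes separated the clusters, and the weaker correlations of the most opposed genes lay between -0.397 (Map2) and 0.0745 (Snrnp35). The causes were not tested. Of the first 10 likeness genes, 3 to 10 stayed among the first 10 over the processings and 4 to 9 with a tumor left out. No paired analysis was possible because each tumor came from its own mouse and the replicate numbers do not pair groups, while slide and scan day were fitted as random blocks.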
